A study of Homo sapiens with 9 samples.

Results

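The Notch receptors, ligands and direct targets were followed in OVCA433 cells after MPZL3 knockdown. The 10 genes were NOTCH1, NOTCH2, NOTCH3, NOTCH4, JAG1, JAG2, DLL1, HES1, HEY1 and NRARP, taken from the table by symbol, out of 58676 genes in the count table. Every one of the 10 was found once and passed the filter on low counts, although NOTCH4 and HEY1 were close to it. OVCA433 is an established human line of ovarian serous adenocarcinoma. It was transduced with pLKO.1 lentivirus, a vector that drives a short hairpin from a U6 promoter, and selected with puromycin. The 3 groups were the control vector, labelled WT, and hairpin #1 or hairpin #3 against MPZL3, labelled MPZL3 knock-down, with 3 libraries each (A, B and C) and 9 in all. All 9 libraries came from 1 line grown in culture. The study describes the control in 1 place as an empty vector and in another as a scrambled hairpin, so whether the control cells carried a hairpin is uncertain.

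Notch signalling passes between touching cells. A ligand of the Jagged or Delta family on 1 cell binds a Notch receptor on its neighbour, an ADAM protease and then gamma-secretase cut the receptor, and the freed intracellular part joins the DNA-binding protein RBPJ and the coactivator Mastermind to switch on HES and HEY repressors and NRARP. Which ligand a cell carries, and which sugars the Fringe enzymes add to the receptor, affect which receptors are activated. In ovarian cancer the pathway has been studied for its part in growth, stem-like properties and epithelial-mesenchymal transition.

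RBPJ binds the bases TGGGAA, and 2 of these sites in front of HES1 are shown because HES1 is the best known target of the pathway. In the RefSeq promoter of HES1 on GRCh38.p14 (chr3:194136060-194136089, plus strand), from base 88 to base 59 before the start of transcription, the 30 bases read as follows with the 2 matches in capitals.
HES1: actgTGGGAAagaaagttTGGGAAgtttca
The first match was preceded by G and so also read GTGGGAA, a longer form that contains the first motif. Promoters of 250 bases before to 50 bases after the start were available for 8 of the 10 genes, DLL1 and HEY1 having no entry. HES1 held 2 matches to TGGGAA on either strand, and NOTCH1, NOTCH2, NOTCH3, NOTCH4, JAG1, JAG2 and NRARP held none. Of 35116 promoters of the same length, 24% held at least 1 match, 3.8% held 2 or more and 6.25% held GTGGGAA. A match is a match of letters and does not show binding.

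MPZL3, the gene that was targeted, was checked first. It stood at 15.59, 21.9 and 21.03 CPM in control libraries A, B and C, at 1.869, 1.984 and 1.801 CPM with hairpin #1, and at 1.942, 0.9876 and 1.795 CPM with hairpin #3 (CPM are read counts scaled to a common library size). This was a log2 fold change of -3.37 with hairpin #1 and of -3.62 with hairpin #3, each in the direction that the labels give. Library totals ranged from 16850854 to 23890191 counts, and 15975 genes were tested. The epithelial adhesion molecule EPCAM averaged 402.6 ± 23.6 CPM in the control libraries against 5.48 ± 1.25 and 8.931 ± 1.34 CPM in those of hairpins #1 and #3 (SD, n = 3). Of the 10 epithelial and serous markers, 6 fell and 1 rose by at least 2-fold for both hairpins together. MUC16, 1 of the 6 that fell, was at the floor of 3 counts in all knockdown libraries, and WT1 held 0 counts in every library, control included. SOX17 rose by just under 2-fold (log2 fold change 0.96, edgeR adjusted p = 0.001061). PAX8, a lineage marker of these tumours, rose from 96.99 ± 16.7 to 199.9 ± 12.2 and 207.3 ± 20.6 CPM. The 6 fibroblast markers summed to 18.66 to 22.03 CPM in control, 107.9 to 443.9 CPM with hairpin #1 and 499.8 to 869.4 CPM with hairpin #3, with 3 of 6 above the floor in control and 5 of 6 with either hairpin, and DCN at the floor everywhere. COL1A1 made up most of these sums, at 17.88 ± 1.88, 312.2 ± 188 and 641.2 ± 186 CPM in the 3 groups. THY1 and PDGFRA held at most 9 counts in any library. The 3 endothelial markers summed to 0.3981 to 0.6213, 1.495 to 4.073 and 3.295 to 5.846 CPM in the 3 groups, with CDH5 at 1 to 3 counts per library in control and 24 to 112 after knockdown, and PECAM1 at the floor in control and with hairpin #1. The 4 mesothelial markers summed to 124.2 to 158.5, 94.06 to 110.2 and 154.6 to 197.4 CPM, of which UPK3B fell from 57.19 ± 11.6 CPM to 0.5408 ± 0.149 and 0.7456 ± 0.337 CPM, and MSLN rose with hairpin #3 from 68.39 ± 14.3 to 148.9 ± 29.7 CPM. The third endothelial marker, VWF, averaged 0.3877 ± 0.123, 0.4215 ± 0.091 and 0.5114 ± 0.292 CPM in the 3 groups, with no call. The epithelial and fibroblast shifts moved with the knockdown in the comparisons with control. The endothelial sum did so through CDH5. The mesothelial sum lay below control with hairpin #1, and with hairpin #3 it overlapped control and reached above it. The fibroblast and mesothelial sums also separated the hairpins. The part of all these shifts in the Notch results was not tested. In bulk RNA, fewer cells expressing a gene and less RNA per cell cannot be told apart.

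With both hairpins pooled as MPZL3 knockdown (6 libraries against 3), 3 of the 10 genes passed both thresholds, an adjusted p-value of edgeR's quasi-likelihood test under 0.05 and at least a 2-fold change. JAG1 and HEY1 rose and JAG2 fell. Across all tested genes 14.7% passed, 7.26% higher and 7.4% lower. With hairpin #1 alone 1 of the 10 passed, JAG2, beside 16.3% of all tested genes (7.76% higher and 8.55% lower). With hairpin #3 alone JAG1, HEY1 and JAG2 passed, beside 15.3% (7.46% higher and 7.83% lower). With the adjusted p-value alone and no fold threshold, 6, 5 and 5 of the 10 passed in these 3 comparisons, where 33%, 37.8% and 34.7% of all tested genes did. The comparisons share the control libraries, so they are not independent. Hairpin #3 against hairpin #1 gave 1 call, HEY1, higher with hairpin #3, where 3.93% of all tested genes passed (2.22% higher and 1.72% lower). On the adjusted p-value alone NOTCH1 and HEY1 passed there, beside 11.6% of all. The median absolute log2 fold change of the 10 genes was 0.64 for both hairpins, against 0.3 over all tested genes. With 10 genes, 1 gene more or less moves these shares by 10 percentage points.

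**Figure D1:**
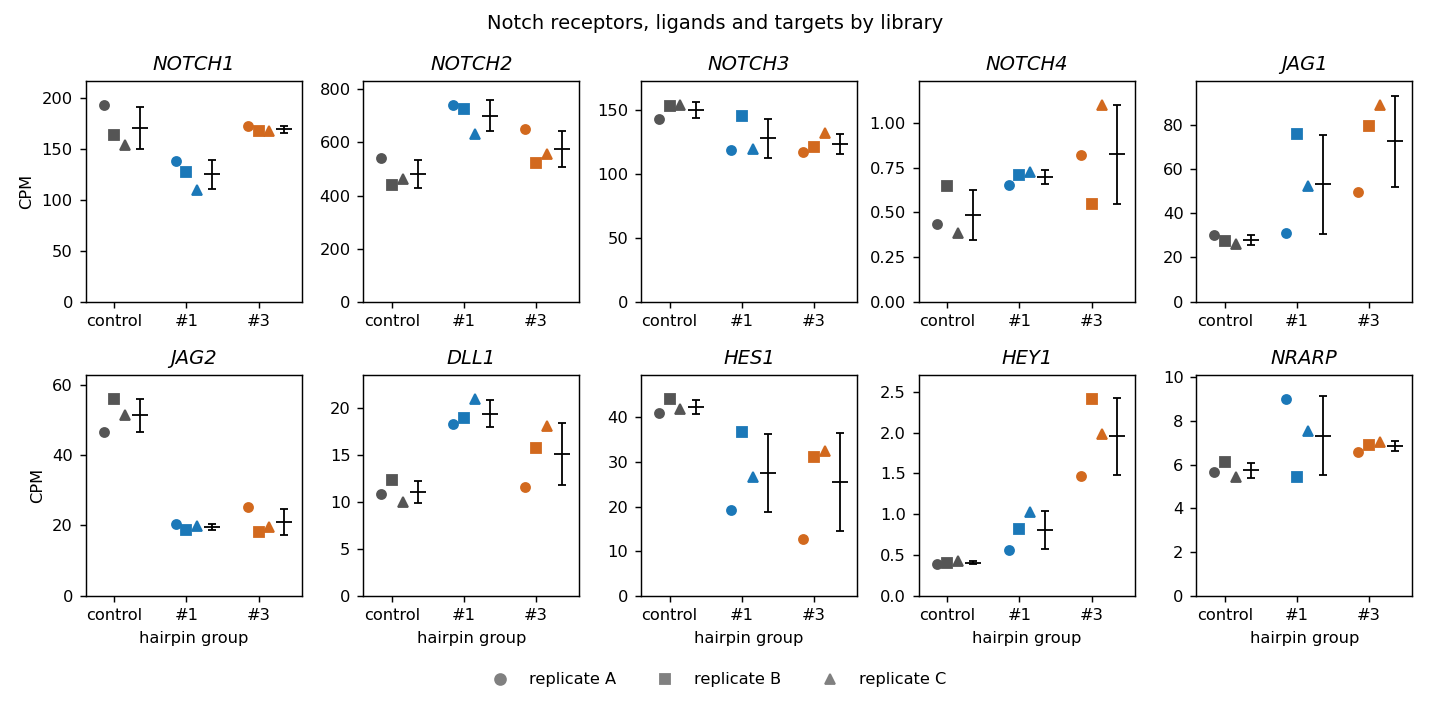
Level of each of the 10 genes in CPM (vertical axes, each starting at 0) in the control, hairpin #1 and hairpin #3 libraries; marker shapes give replicates A, B and C, and black bars give the mean and SD of 3 libraries. JAG2 lay at 46.58 CPM or more in control and at 25.19 CPM or less after knockdown, and HEY1 lay at 0.4301 CPM or less in control and at 0.5607 CPM or more after knockdown.

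Among the 4 receptors, 0 passed both thresholds in any comparison by edgeR or DESeq2, and 2 or 3 of the 4 had an unadjusted p under 0.05 in each. The share of all tested genes at that unadjusted level was not computed. It is at least the share given above for the adjusted p-value alone. Per kilobase of gene length, the scale on which genes can be compared, control cells carried NOTCH2 at 28.64 ± 3.22, NOTCH1 at 17.26 ± 2.08, NOTCH3 at 15.93 ± 0.638 and NOTCH4 at 0.0501 ± 0.0144 CPM per kb (SD, n = 3). NOTCH2 led in every group. NOTCH1 and NOTCH3, next to each other in this order, did not differ beyond their spread in control, and NOTCH4, best known from endothelial cells, was below all others.

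NOTCH1 (chromosome 9, 136494444 to 136545862) set the hairpins apart. Control libraries held 193.7, 163.4 and 154.5 CPM, hairpin #1 libraries 137.9, 127.9 and 109.4 CPM, and hairpin #3 libraries 173.1, 167.4 and 167.5 CPM. Every hairpin #1 library lay below all the others, while hairpin #3 lay inside the range of control. The log2 fold change was -0.45 (SE 0.111, edgeR adjusted p = 0.006085) with hairpin #1 and -0.01 with hairpin #3 (95% interval -0.25 to 0.23, adjusted p = 0.9566 by edgeR). The difference between the hairpins was 0.44 (SE 0.111, edgeR adjusted p = 0.02137), under 2-fold, and over the alternatives its adjusted p ran from 0.0005578 to 0.09595. Its 50 expressed neighbours on the chromosome had a median difference between the hairpins of 0.24, whose part in this value was not tested.

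NOTCH2 (chromosome 1, 119911553 to 120069626) had higher values after knockdown, by less than 2-fold. It stood at 542, 438 and 463.9 CPM in control, at 742.5, 726.1 and 633.5 CPM with hairpin #1 and at 649.8, 521.2 and 555.7 CPM with hairpin #3. The hairpin #1 libraries lay above all control libraries, and the hairpin #3 libraries overlapped them. On the log2 scale it was higher by 0.54 with hairpin #1 (SE 0.12, edgeR adjusted p = 0.002825) and 0.26 with hairpin #3 (edgeR adjusted p = 0.1159), and the 2 did not differ past the threshold (difference -0.28, 95% interval -0.54 to -0.03, edgeR adjusted p = 0.1554). NOTCH2 has a near-identical partial copy, NOTCH2NL, which held 18 to 42 counts per library against 8801 to 15889 for NOTCH2, and how the counting split reads between them is not given.

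NOTCH3 (chromosome 19), a receptor whose gene is amplified in a share of ovarian serous carcinomas, was lower by less than 2-fold. Control libraries held 142.8, 152.4 and 153.8 CPM, hairpin #1 libraries 118.6, 144.8 and 119.1 CPM and hairpin #3 libraries 116.5, 120.8 and 131.6 CPM. Library B of hairpin #1 reached into the control range, and the other 5 knockdown libraries lay below it. Its log2 fold change of -0.26 for both hairpins (edgeR adjusted p = 0.0424) passed on the adjusted p-value, which reached 0.1356 when single libraries were left out. NOTCH4 held 8 to 24 counts per library, 0.3823 to 1.105 CPM, and its log2 fold change of 0.64 had a 95% interval of -0.09 to 1.37 (edgeR adjusted p = 0.1705). NOTCH4 shares exonic bases with GPSM3 on the same strand, which held 371 to 998 counts, so its few reads are uncertain.

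The summed level of the 4 receptors was 61.89 ± 4.53 CPM per kb in control, 68 ± 5.62 with hairpin #1 and 64.56 ± 3.92 with hairpin #3 (SD, n = 3), differences of about the size of the SD. The makeup shifted more than the sum. NOTCH2 made up 46.2% ± 1.91 of the receptor level in control, 61.32% ± 1.03 with hairpin #1 and 52.94% ± 2.93 with hairpin #3. NOTCH1 made up 27.84% ± 1.51, 18.59% ± 0.969 and 26.6% ± 1.17, and NOTCH3 25.88% ± 2.8, 19.98% ± 1.92 and 20.33% ± 2.01.

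The 2 Jagged ligands moved in opposite directions, and JAG2 had the smallest adjusted p-value of the 10 genes for both hairpins. JAG2 (ENSG00000184916, chromosome 14, 105140981 to 105168824) fell with both hairpins. It stood at 46.58, 55.99 and 51.37 CPM in control, at 20.28, 18.57 and 19.85 CPM with hairpin #1, and at 25.19, 18 and 19.52 CPM with hairpin #3. The lowest control library was above the highest knockdown library, and library A of hairpin #3 was the highest of the 6. The log2 fold change was -1.39 (SE 0.13, edgeR adjusted p = 1.962e-06) with hairpin #1 and -1.3 (SE 0.13, edgeR adjusted p = 4.173e-06) with hairpin #3, and -1.34 for both (2.54-fold lower, SE 0.112, edgeR adjusted p = 2.359e-06). The hairpins differed by 0.09 (95% interval -0.19 to 0.38, edgeR adjusted p = 0.7324). The fall passed both thresholds under each alternative run for the 3 comparisons with control.

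JAG1 (ENSG00000101384, chromosome 20, 10637684 to 10674107) rose. It stood at 30.31, 27.32 and 25.95 CPM in control, at 31.03, 75.85 and 52.18 CPM with hairpin #1, and at 49.49, 79.12 and 88.98 CPM with hairpin #3. Library A of hairpin #1 sat just above the highest control library, and the other 5 knockdown libraries were well above. The log2 fold change was 1.17 for both hairpins (2.25-fold, SE 0.28, edgeR adjusted p = 0.006977) and 1.38 with hairpin #3 (SE 0.269, edgeR adjusted p = 0.001248). With hairpin #1 it was 0.93 (SE 0.268, edgeR adjusted p = 0.01479), short of 2-fold, and with 1 library left out it ran from 0.57 (edgeR adjusted p = 0.09804, without library B of that hairpin) to 1.2 (edgeR adjusted p = 0.000498, without its library A). The hairpins differed by 0.45 (95% interval -0.11 to 1.02, edgeR adjusted p = 0.3193), so no difference between them was shown. The 50 expressed neighbours of JAG1 had a median of -0.34 with hairpin #1 and 0.02 with hairpin #3, and 0.32 between the hairpins, and their part in the JAG1 values was not tested. An antisense gene overlaps an exon of JAG1 and held at most 1 count per library, though the libraries carry no strand.

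DLL1 (chromosome 6, 170282206 to 170306565), a Delta ligand, was higher by less than 2-fold. It stood at 10.8, 12.39 and 10.04 CPM in control, at 18.36, 18.92 and 21.01 CPM with hairpin #1, and at 11.59, 15.75 and 18.14 CPM with hairpin #3. The hairpin #1 libraries lay above every other library, and library A of hairpin #3 lay within control. Its log2 difference from control was 0.81 with hairpin #1 (SE 0.16, edgeR adjusted p = 0.001244) and 0.46 with hairpin #3 (SE 0.161, edgeR adjusted p = 0.04225), the latter reaching an adjusted p of 0.1998 when single libraries were left out.

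Per kilobase, the order of the ligands changed. JAG2 led in control at 8.022 ± 0.735 CPM per kb, with DLL1 at 3.433 ± 0.373 and JAG1 at 3.265 ± 0.262, which did not differ beyond their spread. With hairpin #1, JAG1 stood at 6.213 ± 2.63 and DLL1 at 6.024 ± 0.432, again within their spread, and JAG2 at 3.059 ± 0.139. With hairpin #3, JAG1 led at 8.499 ± 2.41, followed by DLL1 at 4.699 ± 1.03 and JAG2 at 3.267 ± 0.592. The share of JAG2 in the summed level of the 3 ligands was 54.46% ± 2.76 in control, 20.51% ± 4.51 with hairpin #1 and 20.7% ± 7.66 with hairpin #3 (SD, n = 3). JAG1 went the other way, from 22.25% ± 2.49 to 39.43% ± 10.6 and 50.91% ± 6.42. Within single libraries, JAG1 per kb was 0.488, 0.366 and 0.379 times JAG2 per kb in control, 1.15, 3.06 and 1.97 times with hairpin #1, and 1.47, 3.3 and 3.42 times with hairpin #3, so the order of the 2 genes was reversed in 6 of 6 knockdown libraries. The summed ligand level was 14.72 ± 0.931, 15.3 ± 2.61 and 16.46 ± 2.92 CPM per kb in the 3 groups, differences within the largest of these SDs.

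**Figure D2:**
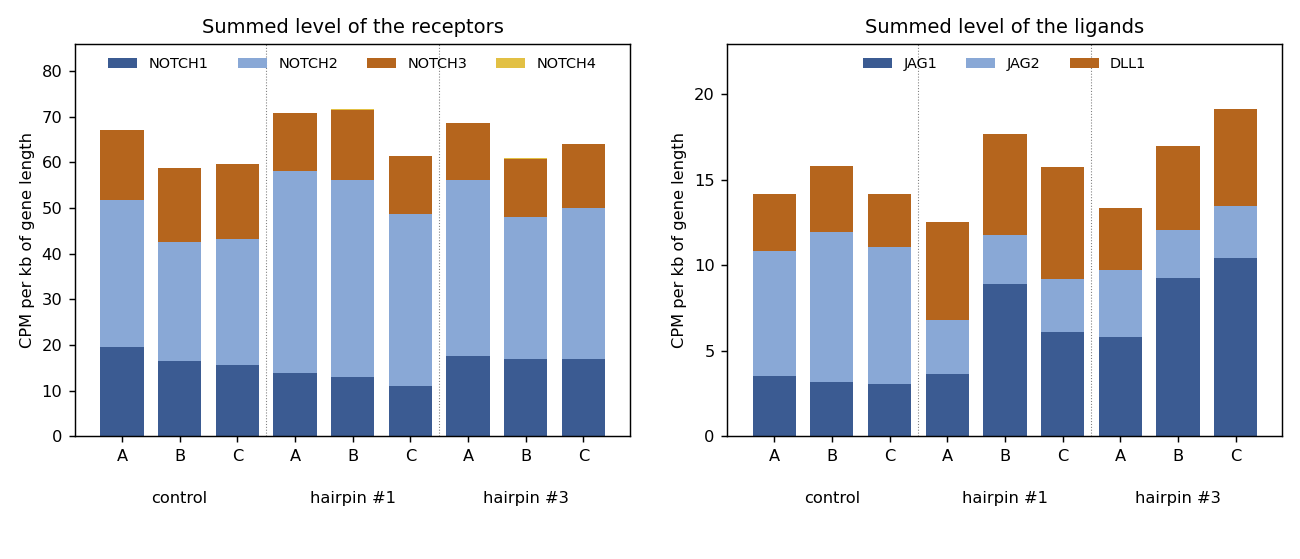
Summed level of the 4 receptors (left) and 3 ligands (right) in each library, in CPM per kb of gene length, stacked by gene; the libraries are A, B and C of control, hairpin #1 and hairpin #3. JAG2 is the largest ligand block in the control libraries and JAG1 or DLL1 in the knockdown libraries. The ligand totals run from 14.18 to 15.8 CPM per kb in control and from 12.5 to 19.1 CPM per kb after knockdown.

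The targets did not move as 1 group. HEY1 (ENSG00000164683, chromosome 8, 79764010 to 79767863), a repressor that Notch switches on, rose from a low level. Control libraries held 8, 8 and 9 counts, hairpin #1 libraries 12, 16 and 24, and hairpin #3 libraries 25, 44 and 43, or 0.3874, 0.3981 and 0.4301 CPM, then 0.5607, 0.814 and 1.029 CPM, then 1.471, 2.414 and 1.979 CPM. The 3 groups did not overlap and stood in the order control, hairpin #1, hairpin #3. The log2 fold change was 2.26 (4.78-fold, SE 0.36, edgeR adjusted p = 0.0002634) with hairpin #3 and 0.98 (SE 0.387, edgeR adjusted p = 0.06318) with hairpin #1. The difference between the hairpins was 1.28 (SE 0.327, 95% interval 0.57 to 1.98, edgeR adjusted p = 0.022).

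These HEY1 calls were not equally firm. The rise with hairpin #3 passed under each alternative. Pooled over hairpins, the log2 rise of 1.74 (SE 0.486, edgeR adjusted p = 0.01617) missed the threshold when control library A, B or C was left out (adjusted p by edgeR of 0.05573, 0.0621 and 0.05313). The difference between the hairpins missed it without library A or B of hairpin #1 (adjusted p by edgeR of 0.06851 and 0.05867) or library B or C of hairpin #3 (0.1176 and 0.06655), at a log2 difference of 1.07 to 1.29. With hairpin #1 the log2 fold change ran from 0.74 (edgeR adjusted p = 0.2154) without its library C to 1.18 (edgeR adjusted p = 0.03784) without its library A, where it passed both thresholds. Expressed neighbours of HEY1 had medians of -0.31 with hairpin #1, -0.21 with hairpin #3 and 0.14 between the hairpins. Their part in the HEY1 values was not tested.

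HES1 (ENSG00000114315, chromosome 3, 194136145 to 194138732), the repressor whose promoter is shown above, had lower values in every knockdown library but did not pass both thresholds. It stood at 40.97, 44.19 and 41.86 CPM in control, at 19.21, 36.73 and 26.71 CPM with hairpin #1, and at 12.77, 31.05 and 32.54 CPM with hairpin #3. The highest knockdown library was below the lowest control library, and library A was the lowest of both hairpins. The spread after knockdown was wide, 27.55 ± 8.79 CPM with hairpin #1 and 25.46 ± 11 CPM with hairpin #3 against 42.34 ± 1.67 CPM in control (SD, n = 3). The log2 fold change was -0.67 for both hairpins (SE 0.252, 95% interval -1.23 to -0.12, edgeR adjusted p = 0.05965), -0.62 with hairpin #1 (edgeR adjusted p = 0.09973) and -0.73 with hairpin #3 (edgeR adjusted p = 0.06233). Over the alternatives the adjusted p for both hairpins ran from 0.01512 to 0.1615, and the log2 fold change from -0.79 to -0.54, never reaching 2-fold. With the replicate letter as a block it was -0.68 with hairpin #1 (edgeR adjusted p = 0.005307) and -0.81 with hairpin #3 (edgeR adjusted p = 0.001882). Per kilobase HES1 was still the highest of the 3 targets in each group, at 20.53 ± 0.808 CPM per kb in control, 13.36 ± 4.26 with hairpin #1 and 12.35 ± 5.34 with hairpin #3.

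NRARP (chromosome 9, 137300482 to 137302251), a target that in turn dampens the pathway by limiting the intracellular receptor, stood at 5.666, 6.121 and 5.448 CPM in control, 9.019, 5.443 and 7.546 CPM with hairpin #1 and 6.591, 6.913 and 7.043 CPM with hairpin #3. Library B of hairpin #1 was the lowest of all 9 libraries, and the other 5 knockdown libraries were above control. Pooled over hairpins, its log2 fold change was 0.31 (95% interval -0.05 to 0.66, edgeR adjusted p = 0.1838). HEY1, HES1 and NRARP therefore gave 1 gene called higher, 1 with lower values and 1 with an interval that spans 0. The lower values of HES1 missed both thresholds in the main fit, and with the replicate block they passed on the adjusted p-value alone.

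**Figure D3:**
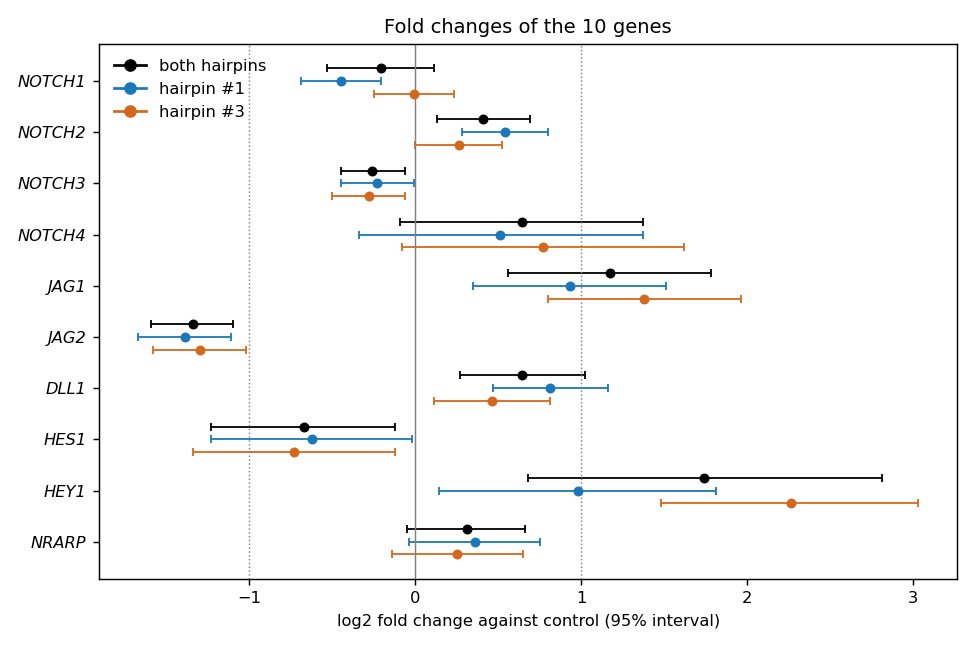
Log2 fold change against control (horizontal axis) of the 10 genes with 95% intervals, for both hairpins (black), hairpin #1 (blue) and hairpin #3 (orange); dotted lines mark 2-fold. JAG2 lies below -1 and HEY1 with hairpin #3 above 1 with their whole intervals, and the intervals of NOTCH4 and NRARP cross 0.

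Across groups of samples, 4 of the 10 genes (JAG1, JAG2, HES1 and HEY1) had no overlap between the 6 knockdown and the 3 control libraries. The share of all tested genes without such overlap was not computed, so this count describes these 4 genes alone. The genes whose log2 CPM followed JAG2 most closely over the 9 libraries were EPHX4 (Pearson r = 0.9944), CCDC129 (0.9913) and WWC1 (0.9896), and 594 genes reached r above 0.95. JAG1 had 24 such genes, led by RP11-357H14.16 (0.9772), ZBTB5 (0.9705) and PSG7 (0.9701), and HEY1 had 41, led by CCNI (0.9833), BMPER (0.9764) and TMEM204 (0.9762). These correlations describe 9 libraries that fall into control and knockdown, so any gene that differs between the 2 follows JAG2 to some extent.

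The other genes of the pathway were 57 further genes in lists by role, of which 51 passed the filter. DLL4, DLK1, CNTN6, HES5, HES7 and HEY2 did not, among them the endothelial ligand DLL4 and the neural target HES5, at 6 and 3 counts per library at most. For both hairpins 7 of the 51 passed both thresholds (13.7%), 3 higher and 4 lower, beside 14.7% of all tested genes. With hairpin #1 and hairpin #3 it was 9 of 51 each (17.6%), beside 16.3% and 15.3% of all, so these 3 shares lay near the background. Between the hairpins it was 5 of 51 (9.8%), beside 3.93%. The genes named below by their change with 1 hairpin or between the hairpins, together with HES4, HES6, APH1B, ADAM10, RBPJ, LFNG, DLL3 and DTX2, were chosen after their values were seen.

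In the nuclear complex (RBPJ, the Mastermind genes, SNW1, EP300 and KAT2B) 0 of 7 passed both thresholds in any comparison by edgeR or DESeq2. At an unadjusted p under 0.05 it was 0 of 7 for both hairpins and 1 in each other comparison. RBPJ stood at 89.76 ± 11.5, 82.49 ± 6.66 and 102.8 ± 7.79 CPM in control, hairpin #1 and hairpin #3. Among the corepressors 0 of 8 passed both thresholds by either tool, with 2, 5, 2 and 3 of 8 at an unadjusted p under 0.05 for both hairpins, hairpin #1, hairpin #3 and hairpin #3 against hairpin #1. These unadjusted counts of both lists have no share over all tested genes beside them, since none was computed. Of the 9 proteases and gamma-secretase subunits 1 passed for both hairpins, APH1B, a gamma-secretase subunit, which averaged 5.337 ± 1.22 CPM in control against 13.27 ± 2.65 for hairpin #1 and 10.14 ± 1.18 for hairpin #3 (SD, n = 3, log2 fold change 1.13, edgeR adjusted p = 0.001339). It was not called with hairpin #3 alone (0.92). ADAM10, the protease that makes the first cut, stood at 249.7 ± 3.36, 210.4 ± 23 and 172.6 ± 14 CPM, a log2 fold change of -0.53 with hairpin #3 (edgeR adjusted p = 0.001103), under 2-fold, and 7 of the 9 genes of this list, 1 higher and 6 lower, passed with hairpin #3 on the adjusted p-value alone, where 34.7% of all tested genes did.

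Among the HES and HEY relatives the largest fall was that of HES2. It stood at 7.07, 6.42 and 8.984 CPM in control, at 0.2336, 0.1526 and 0.1715 CPM with hairpin #1 and at 0.2942, 0.4938 and 0.4143 CPM with hairpin #3, where 3 to 9 counts per library remained (log2 fold change -4.66, SE 0.289, edgeR adjusted p = 1.949e-07). HES4 fell from 30.49 ± 1.63 to 12.98 ± 2.71 CPM with hairpin #1 and stood at 16.34 ± 2.98 CPM with hairpin #3, where it was short of 2-fold (-0.9, edgeR adjusted p = 0.0006615). For both hairpins its log2 fold change of -1.06 was -0.99 without library B of hairpin #1. HEYL followed HEY1 in direction with hairpin #3. It held 2 to 4 counts in control, 1 to 7 with hairpin #1 and 18, 21 and 22 with hairpin #3 (log2 difference between the hairpins 2.9, SE 0.548, edgeR adjusted p = 0.003844). HES6 stood at 15.4 ± 0.361, 14.56 ± 2.94 and 13.38 ± 1.98 CPM, with no call.

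On the ligand side, DNER, a transmembrane protein with EGF repeats described as a non-canonical Notch ligand, rose from 3.39, 8.759 and 9.176 CPM in control to 68.69, 108.2 and 100.8 CPM with hairpin #1 and to 51.55, 85.92 and 98 CPM with hairpin #3 (12-fold for both, log2 fold change 3.59, SE 0.34, edgeR adjusted p = 7.159e-06). All 6 knockdown libraries were far above control. CNTN1, a contactin also described as a ligand, went in opposite directions with the 2 hairpins, standing at 13.12, 10.25 and 10.61 CPM in control, 22.85, 18.72 and 20.28 CPM with hairpin #1 and 2.001, 1.481 and 1.197 CPM with hairpin #3 (log2 difference between the hairpins -3.74, SE 0.196, edgeR adjusted p = 1.349e-07). With hairpin #1 its log2 fold change of 0.86 was under 2-fold. DLL3, an atypical Delta ligand, fell with hairpin #1 (-1.08, edgeR adjusted p = 0.00115) and missed 2-fold for both hairpins (-0.95, edgeR adjusted p = 0.002072). With hairpin #1 it missed 2-fold without control library C or library B of that hairpin, at -1 and -0.94.

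Ubiquitin ligases of the pathway changed in both directions. DTX4, a Deltex protein that binds the intracellular receptor, fell from 31.77, 36.53 and 40.96 CPM in control to 0.9813, 1.831 and 0.7717 CPM with hairpin #1 and to 4.766, 3.95 and 4.649 CPM with hairpin #3 (log2 fold change -3.71, edgeR adjusted p = 4.238e-05). The 3 groups did not overlap, and the fall was smaller with hairpin #3 (difference 1.92, edgeR adjusted p = 0.0002914). DTX1, another Deltex protein and itself a known Notch target, rose from 0.8097 ± 0.112 CPM to 5.715 ± 0.725 CPM under hairpin #1 and to 2.767 ± 0.764 CPM under hairpin #3 (SD, n = 3, log2 fold change 2.38, edgeR adjusted p = 0.000599). Its difference between the hairpins, -1.05 (edgeR adjusted p = 0.008333), missed a threshold without library A of hairpin #1 or library B or C of hairpin #3, at -1, -0.94 and -0.94. DTX2 stood at 44.98 ± 6.12, 24.01 ± 1.66 and 22.13 ± 1.1 CPM and passed both thresholds with hairpin #3 (-1.02, edgeR adjusted p = 1.481e-05), a call lost at -0.93 without control library C and at -0.99 without library A of that hairpin. NEURL1, a ubiquitin ligase that promotes uptake of ligands, fell from 16 to 33 counts in control to 2 to 11 counts after knockdown (log2 fold change -2.26, edgeR adjusted p = 0.002537).

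The Fringe enzymes, which add sugars that set the response of Notch to Jagged or Delta ligands, gave calls in single-hairpin comparisons for LFNG and MFNG and none for RFNG. RFNG averaged 45.1 ± 3.25, 46.16 ± 5.77 and 46.66 ± 4.77 CPM in control, hairpin #1 and hairpin #3, with a difference between the hairpins of 0.02 (edgeR adjusted p = 0.9616). LFNG averaged 17.19 ± 2.79 CPM in control libraries, 22.71 ± 0.486 for hairpin #1 and 34.92 ± 9.12 for hairpin #3 (SD, n = 3), and passed both thresholds with hairpin #3 (1.03, edgeR adjusted p = 0.0005008). That call missed 2-fold without control library A (0.9) or library B or C of hairpin #3 (0.96 and 0.86), and the difference between the hairpins was 0.62 (edgeR adjusted p = 0.0341), under 2-fold. MFNG rose with hairpin #1 instead (2.01, edgeR adjusted p = 0.003426), holding 9 to 15 counts in control, 19, 63 and 62 with hairpin #1 and 8 to 16 with hairpin #3. Its difference between the hairpins, -1.83 (edgeR adjusted p = 0.01873), missed the threshold without library B or C of hairpin #1 or library A or B of hairpin #3 (adjusted p by edgeR of 0.08933, 0.06918, 0.05587 and 0.06945).

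**Figure D4:**
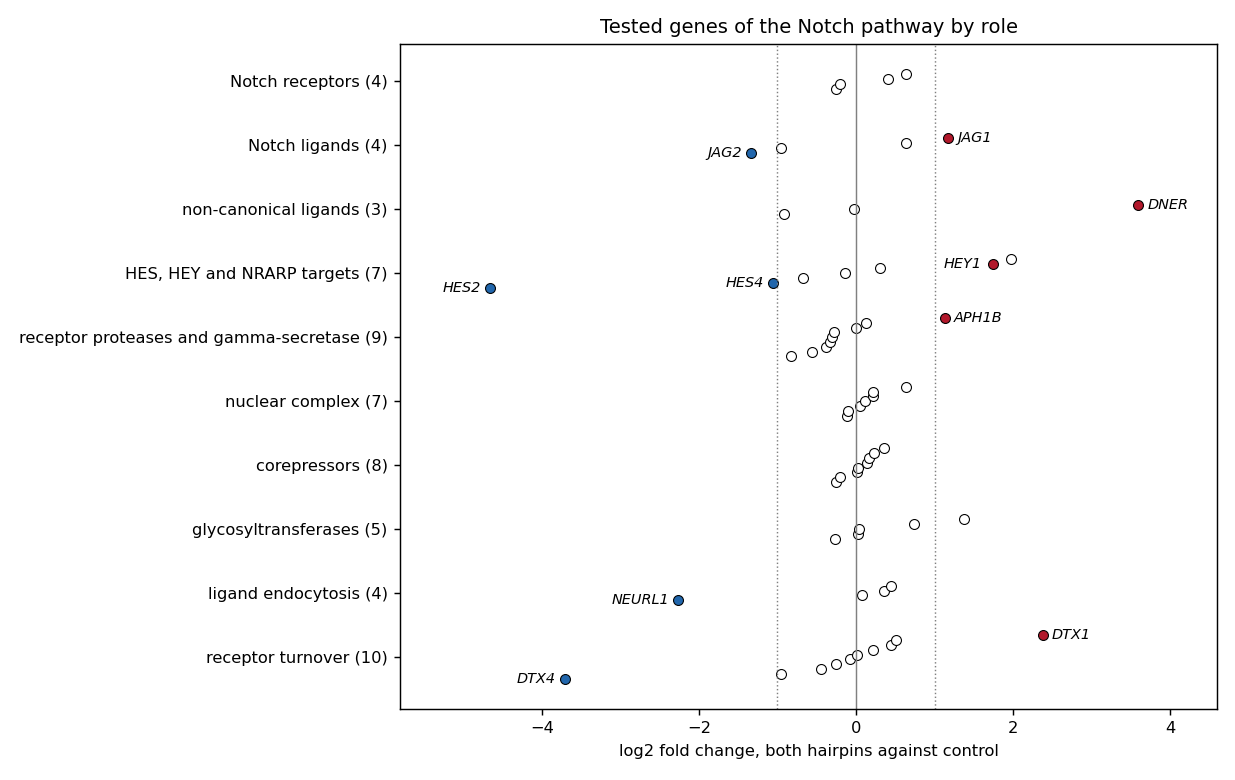
Log2 fold change for both hairpins against control of the 61 tested pathway genes (points), grouped by role on the vertical axis with the number of genes tested; red and blue points passed both thresholds, higher or lower, and dotted lines mark 2-fold. The nuclear complex and the corepressors hold no filled point, and the largest changes are HES2, DTX4 and DNER.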

How the data were processed

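RNA of 9 OVCA433 libraries was poly(A)-selected and sequenced without strand. The deposited values are raw read counts per gene, which the authors made with HISAT2 2.0.5 and featureCounts 1.5.0-p3 on hg38 (submitters' processing notes), with counting options not given in the sources used here. Genes were filtered with edgeR's filterByExpr (minimum count 10, minimum total count 15), leaving 15975 of 58676 genes, and scaled with TMM. Differences were tested with edgeR 4.0.16 in R 4.3.3 (glmQLFit and glmQLFTest), adjusted by Benjamini-Hochberg over all tested genes, pooled as in the study and in a 3-group model. Calls needed an adjusted p-value under 0.05 and a log2 fold change of 1 or more in size. Levels are CPM, and CPM per kb uses the gene length in the table. Intervals use the t distribution of the fit and are not adjusted for the number of genes. Neighbours are up to 50 genes on the chromosome with a mean of at least 10 CPM. The floor is 3 counts in each library of a group, counting error only. The study states biological replicates. Within groups no 2 libraries were alike within sampling noise (chi-square per degree of freedom 6.524 to 39.64). The code was tested on simulated data. Alternatives were library totals or DESeq2 size factors in place of TMM, no filter or a mean of 1 CPM, the test of DESeq2 1.42.0, a replicate block, a 3-group pooled estimate, other thresholds and leaving out each library. The members and lists were chosen with earlier results of these data known. Named genes were the 10 members, MPZL3, markers, up to 3 genes per list called with each hairpin and pooled in 1 direction, and the 3 genes most like each called member. Gene models were checked against GENCODE 29, where 95.2% of genes had the same coordinates.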

Additional observations from a re-analysis of the deposited data

Results flagged for a closer look

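Among the 6 knockdown libraries, JAG2 was highest in library A of hairpin #3, at 25.19 CPM, and its gap to the next library took 0.682 of the whole range. Chance alone can mark a group in this way, at a rate that was not computed here. The fall of JAG2 with hairpin #3 was -1.45 on the log2 scale without that library.

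The hairpins differed for NOTCH1 and HEY1 by the test of the difference itself. NOTCH1 was higher with hairpin #3 by 0.44 on the log2 scale (edgeR adjusted p = 0.02137), under 2-fold. HEY1 was higher with hairpin #3 by 1.28 (edgeR adjusted p = 0.022). Over the alternatives these adjusted p-values reached 0.09595 and 0.1176. On the adjusted p-value alone 11.6% of all tested genes passed between the hairpins.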

How the results depend on the processing

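Of 606 values recomputed for the 10 genes, 590 kept their direction and their side of both thresholds. Without a fold threshold, 6, 5, 5 and 2 of the 10 genes passed for both hairpins, hairpin #1, hairpin #3 and hairpin #3 against hairpin #1, as did 25, 27, 29 and 12 of the 61 tested pathway genes. At an adjusted p under 0.01, 0 of the 10 genes passed between the hairpins by edgeR, where 4 had an unadjusted p under 0.05 and DESeq2 called 1 at 0.05. The share of all tested genes at the unadjusted level was not computed. With 1 library left out, the members called ranged from 2 to 3, 1 to 3, 3 to 3 and 0 to 1 in these comparisons, and the pathway genes from 9 to 11, 9 to 12, 11 to 13 and 3 to 6. Without library A of hairpin #1 3 members passed with that hairpin, 0 members passed between the hairpins without library A or B of hairpin #1 or B or C of hairpin #3, and 3 pathway genes passed between them without library B of hairpin #3. Signs turned, none of them past a threshold, with 1 library left out, for NOTCH1 with hairpin #3 (-0.08 to 0.09) and between the hairpins for NOTCH3 (-0.11 to 0.05), NOTCH4 (-0.02 to 0.47), JAG2 (-0.06 to 0.19), HES1 (-0.32 to 0.21) and NRARP (-0.27 to 0.07). The cause of these shifts was not tested, beyond the smaller number of libraries. The stability of the other pathway genes was examined by alternatives chosen after seeing the data.

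Residuals of libraries with the same letter correlated at 0.0515 to 0.466 in 9 pairs and those with different letters at -0.437 to 0.185, and 7 of 9 libraries correlated best with their own letter, and control and hairpin #3 had all 3 pairs above 0.1 (0.401, 0.136 and 0.296), while control and hairpin #1, and the 2 hairpins, had their B pair below it (0.0515 and 0.0786). All 9 same-letter correlations were positive, and the level of 0.1 is no test. Whether the letters pair the libraries is therefore not settled. The main fits were run without pairing, and the fit with the letter as a block is given as an alternative. With the letter as a replicate block the members called were 3, 1, 3 and 1 and the pathway genes 10, 10, 12 and 6, and HES1 stood at -0.76 for both hairpins (edgeR adjusted p = 0.01512), under 2-fold. On the adjusted p-value alone, HES1 in the 3 comparisons with control, NOTCH2 with hairpin #3 (0.26, edgeR adjusted p = 0.01222) and between the hairpins (-0.29, edgeR adjusted p = 0.01318), and NOTCH3 with hairpin #1 (-0.23, edgeR adjusted p = 0.02128) passed with the block and not without it. Counts of 8 to 24 per library limit NOTCH4, and 8 to 44 limit HEY1.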
